A study of Mus musculus with 18 samples.

Results

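The nuclear genes of oxidative phosphorylation were followed across 6 groups of sorted mouse blood stem cells. Members were the rows of the deposited table whose gene name begins with Nduf, Uqcr, Sdh, Atp5, Cox4, Cox5, Cox6, Cox7 or Cox8, without names that carry -ps. Of 44349 rows, 95 matched and 6 names with -ps were left out. At a filter of at least 1 FPKM in at least 3 libraries, 91 members remained among 14285 genes. The 4 matched genes under the filter were Cox8b and Cox8c, listed at 0 in every library, Cox7b2 and Ndufa4l2. FPKM stands for fragments scaled to the length of the transcript and to the depth of the library. By name, 44 members belong to complex I (37 subunits and 7 assembly factors called Ndufaf), 8 to complex II (4 subunits and 4 assembly factors called Sdhaf), 8 to complex III, 14 to complex IV and 17 to complex V. Cox4i1 was not analysed here. All 91 members matched a protein-coding gene of the GENCODE M21 annotation on GRCm38 and lie on 19 chromosomes. The name rule is not exact for function. The row named ATP5SL is Dmac2, an assembly factor of complex I, and Ndufa4 is a subunit of complex IV.

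The cells were blood stem cells of the long-term class (LT-HSC), taken from bone marrow by sorting as lineage negative, Sca-1 positive and c-Kit positive, without CD34 and Flk2 and with low CD49b. Each group had 3 libraries. WT and KO Ctrl were the control libraries of the wild type and of the DERARE knockout. DERARE is a retinoic acid response element that lies distally in the Hoxb cluster. Wnt5a and KO Wnt5a carry the label of the secreted ligand Wnt5a in the wild type and in the knockout, the latter described as a rescue. WT Reserve and KO Reserve carry the label reserve in the wild type and the knockout. The route and duration of Wnt5a, the age and strain of the mice and the animals behind each library are not stated in the labels used here, so the p-values refer to the variation among these libraries, which may be technical. The column names of the reserve libraries also carry the letters fl, which the others lack, and that difference and the reserve label cannot be told apart.

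Oxidative phosphorylation moves electrons from NADH through complex I and from succinate through complex II to complex III, cytochrome c and complex IV, and complex V uses the proton gradient to make ATP. Complexes I, III, IV and V join subunits encoded in the nucleus with subunits encoded in mitochondrial DNA, while complex II is encoded in the nucleus alone. In each complex a few core or catalytic subunits carry the redox centres or the ATP-forming site, and many small accessory subunits surround them. Quiescent LT-HSC are known for a low reliance on respiration, and respiration rises as they divide and differentiate.

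Depth inferred from the deposited values ran from 21200000 to 40900000 fragments per library, at which 3 fragments on a transcript of 1 kb stand for 0.0734 FPKM in the deepest library. Pearson's r between libraries of a group, across genes, was 0.932 to 0.968 over all genes tested and 0.991 to 0.999 over the members. The first principal component of all genes (53.3% of the variance) separated the 6 reserve libraries. Markers of other blood cells differed with the reserve label. The summed FPKM of 10 granulocyte markers was 116 ± 10.5 for WT and 27.1 ± 7.03 for KO Ctrl (SD, n = 3). It reached 7094 ± 3089 with the reserve label in the wild type and 3228 ± 651 with it in the knockout, all 10 markers being above 0. The erythroid sum of 11 genes was 218 ± 21.04, 193 ± 6.11, 5040 ± 890 and 7672 ± 286 in the same order, and the B lymphoid sum 31.7 ± 3.77, 68.3 ± 4.05, 2171 ± 187 and 1677 ± 184. The megakaryocyte sum went the other way, at 25202 ± 5082, 14859 ± 4344, 177 ± 3.68 and 104 ± 27.7. The sum of 10 LT-HSC markers was 418 ± 20.97, 477 ± 9.03, 325 ± 62.0 and 81.0 ± 2.43. These sums weigh abundant genes most, and single markers could differ from them. Of 9 LT-HSC markers tested, 5 were called higher and 3 lower in WT Reserve against WT (limma, median 0.52). In KO Reserve against KO Ctrl 0 were called higher and 8 lower. Of 10 granulocyte markers 1 was called higher and 2 lower in KO Ctrl against WT (median 0.01). In KO Ctrl 3 granulocyte markers (Ctsg, Elane and Lcn2) and 5 erythroid ones (Ank1, Car1, Hba-a1 and Slc4a1 among them) were at 0 in all 3 libraries, as were Car1 and Hba-a2 in WT. The part of these differences in the reserve results was not tested, and in bulk RNA fewer cells of a type and less RNA per cell cannot be told apart.

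Promoters of the respiratory genes are known for sites of the nuclear respiratory factor NRF1, of the ETS-family factor GABP (also called NRF2) and of YY1. A RefSeq table on GRCm38.p6 gave the 250 bases before to 50 bases after the start for 76 of the 91 members. Both strands were searched for GCGCANGC (NRF1), CCGGAAG (ETS) and AANATGGCG (YY1), and a gene was counted once. The letters of NRF1 were in 27 of the 76 promoters (35.5%), against 22.5% of the tested genes with a promoter in the table and 11.2% of all 27025 genes in it. Those of ETS were in 20 (26.3%, against 20.8% and 9.93%) and those of YY1 in 12 (15.8%, against 6.26% and 2.76%). By complex, NRF1 letters were in 11 of 39 promoters of complex I, 5 of 7 of complex II, 2 of 5 of complex III, 1 of 11 of complex IV and 8 of 14 of complex V. These shares are descriptions of letters and not of bound factors.

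The following 5 stretches are shown because they belong to genes on which the results turn, with Uqcr11, Cox6a1, Sdhd and Cox6b2 higher in KO Reserve than in WT Reserve and Sdha lower in both reserve groups than in their controls. Each is 150 bases of GRCm38.p6 on the minus strand, 5′ to 3′, ending before the first start in either annotation. Capitals mark NRF1 or ETS letters. The stretches are chr10:80406831-80406980 (Uqcr11), chr5:115348982-115349131 (Cox6a1), chr9:50603850-50603999 (Sdhd), chr13:74350281-74350430 (Sdha) and chr7:4753095-4753244 (Cox6b2).
Uqcr11: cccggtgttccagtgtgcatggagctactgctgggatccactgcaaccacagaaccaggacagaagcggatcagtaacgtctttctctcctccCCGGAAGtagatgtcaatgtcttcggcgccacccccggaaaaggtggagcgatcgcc
Cox6a1: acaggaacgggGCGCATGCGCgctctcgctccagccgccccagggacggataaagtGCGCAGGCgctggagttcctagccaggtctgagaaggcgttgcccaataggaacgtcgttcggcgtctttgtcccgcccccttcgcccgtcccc
Sdhd: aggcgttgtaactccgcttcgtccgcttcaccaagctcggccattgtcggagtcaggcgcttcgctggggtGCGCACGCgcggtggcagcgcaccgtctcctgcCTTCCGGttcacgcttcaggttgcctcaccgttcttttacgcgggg
Sdha: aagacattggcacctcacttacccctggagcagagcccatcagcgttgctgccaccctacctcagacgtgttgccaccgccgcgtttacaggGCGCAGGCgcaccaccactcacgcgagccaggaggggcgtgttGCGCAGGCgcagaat
Cox6b2: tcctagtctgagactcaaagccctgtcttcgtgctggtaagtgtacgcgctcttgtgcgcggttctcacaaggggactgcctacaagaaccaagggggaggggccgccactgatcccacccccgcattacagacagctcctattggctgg
The stretch of Uqcr11 holds 1 ETS match. That of Cox6a1 holds 3 NRF1 matches, of which 2 overlap on opposite strands. The Sdhd stretch holds 1 match of each kind, the Sdha stretch 2 NRF1 matches, and Cox6b2 none of the 3 motifs, also over its full 300 bases. Over the full 300 bases Uqcr11 also has 1 NRF1 match, Cox6a1 also has 1 ETS match, and Sdha has 3 NRF1 matches.

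The members are among the more abundant messages of these cells. The median of their mean levels was 338 FPKM in WT, against 9.04 FPKM for all tested genes, and 587 against 7.55 FPKM in KO Reserve. The highest member was Atp5b, the catalytic beta subunit of ATP synthase, in 5 of 6 groups (2618 FPKM in WT), and Uqcr11, a small subunit of complex III, in KO Reserve (3012 FPKM). The lowest was Cox6a2, the heart and muscle isoform of a complex IV subunit, in the 4 groups without the reserve label.

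Summed over the 91 members, the level was 41931 ± 1883 FPKM in WT, 38675 ± 76.4 in Wnt5a, 37857 ± 1206 in KO Ctrl, 38785 ± 1826 in KO Wnt5a, 45724 ± 3626 in WT Reserve and 66688 ± 5356 in KO Reserve (SD, n = 3). The KO Reserve libraries ran from 61440.3 to 72146 FPKM and the highest other library reached 49882 FPKM, so this group did not overlap any other. The ratio of the means of KO Reserve and WT Reserve was 1.63 for complex IV, 1.56 for complex III, 1.48 for the complex I subunits, 1.296 for complex V and 1.06 for the 4 subunits of complex II. For complex II the sums were 1303 ± 45.8 FPKM (WT Reserve) and 1383 ± 122 FPKM (KO Reserve), and the libraries overlapped.

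**Figure D1:**
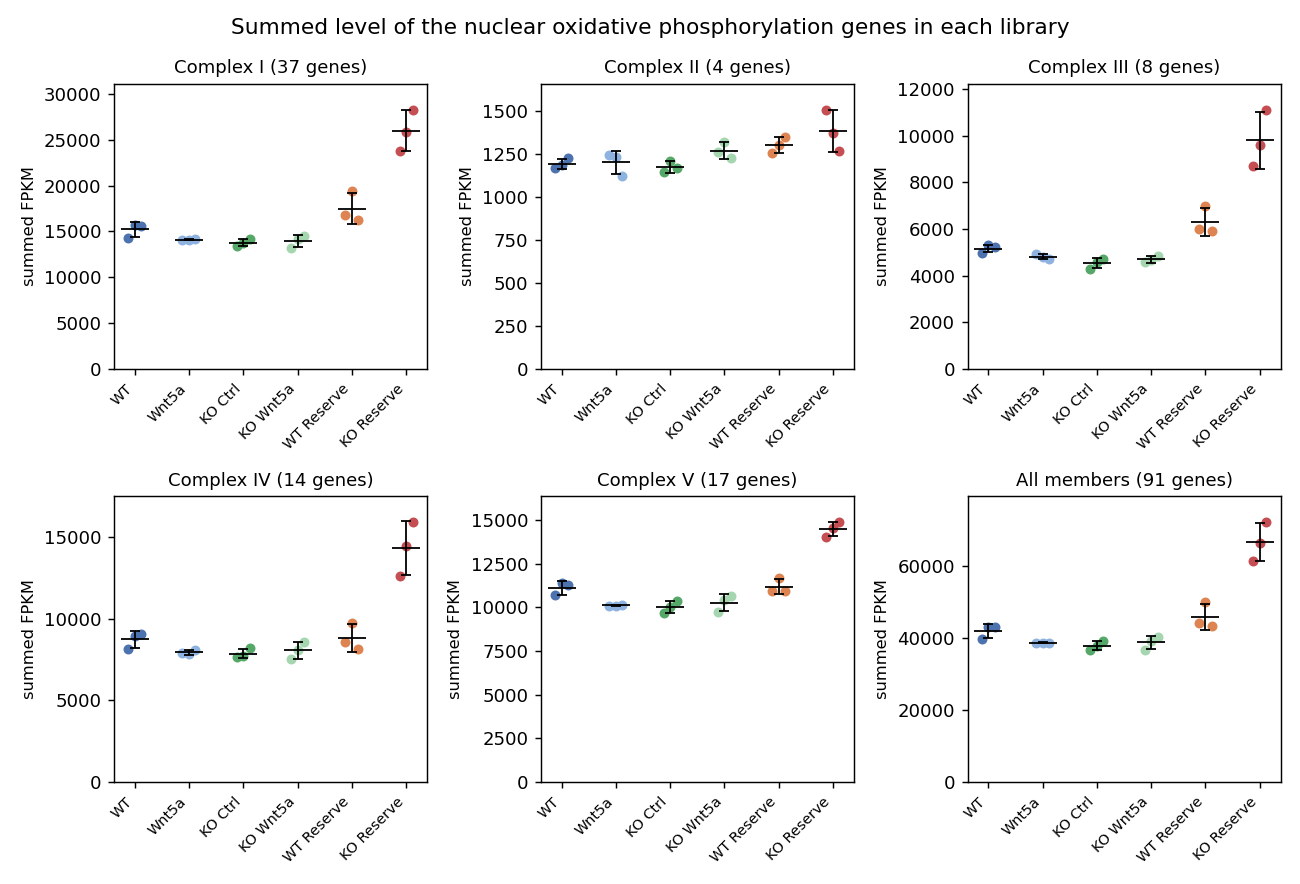
Summed FPKM of each complex and of all members (vertical axes, from 0) in the 18 libraries, by group; points are libraries, and bars give the mean and SD of 3. Complexes I and II are shown without assembly factors. KO Reserve stands above every other group in complexes I, III, IV and V, and its complex II sum overlaps that of WT Reserve.

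Outside the reserve groups, the comparison of KO Ctrl with WT asks what the loss of DERARE does to these genes. No member passed an adjusted p of 0.05 (limma), where 1.53% of tested genes were called higher and 1.12% lower. At an unadjusted p under 0.05, 0 of 91 members were higher and 20 lower, against 1498 and 1019 of 14285 tested genes. The median of the members was -0.11 on the log2(FPKM + 1) scale against 0.04 for all tested genes. Differences and their standard errors are on that scale throughout, which understates the change of low genes. Weighting the libraries by quality called 13 members, and leaving the 6 reserve libraries out of the fit called 4, all lower. The share of all tested genes called in these fits was not counted. The smallest p values were those of Ndufv3 and Atp5d. Ndufv3, a small subunit of the NADH-oxidising arm of complex I, had 319.8, 356 and 357 FPKM in WT and 261, 269.9 and 268 in KO Ctrl, ranges that did not overlap (difference -0.37, SE 0.11, limma adjusted p = 0.0753). Atp5d, the delta subunit of the ATP synthase stalk, differed by -0.35 (SE 0.11, limma adjusted p = 0.109).

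Wnt5a made no member pass in either genotype (limma). Wnt5a against WT called 0.042% of tested genes higher and 0.007% lower. At an unadjusted p under 0.05, 1 of 91 members was higher and 7 lower, against 633 and 493 of 14285 tested genes. The median was -0.08 for members against 0.02 for all tested genes. Weighting the libraries called 14 members in that comparison, and the share of all tested genes called with weights was not counted. KO Wnt5a against KO Ctrl called 0.315% of tested genes higher and 0.707% lower. At an unadjusted p under 0.05, 5 of 91 members were higher and 1 lower, against 831 and 694 of 14285 tested genes. The median was 0.04 for members and for all tested genes. The difference between these 2 differences called 0 members, against 0.021% of tested genes higher and 0.049% lower. At an unadjusted p under 0.05, 2 of 91 members were higher and 0 lower, against 412 and 451 of 14285 tested genes. Of 5 mast cell and basophil markers 2 were called higher with Wnt5a in each genotype; their sum was 17.1 ± 0.70 FPKM in WT, 112 ± 43.8 in Wnt5a, 3.05 ± 0.92 in KO Ctrl and 15.1 ± 9.01 in KO Wnt5a (SD, n = 3), and its part in the values of the members was not tested.

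KO Wnt5a against WT, which asks how near the knockout with Wnt5a came to the wild type, called 1 member higher and 3 lower (limma), against 6.8% and 5.03% of tested genes. Ndufa3, a small accessory subunit of complex I, had 1419.6, 1502 and 1659 FPKM in WT and 1008, 1071 and 1088 in KO Wnt5a. Those ranges did not overlap, and Ndufa3 fell by 0.53 (SE 0.12, limma adjusted p = 0.0079). Ndufv3 fell by 0.41 and Ndufs5 by 0.30, and Cox6b2, the testis isoform of a complex IV subunit, rose by 0.54 (limma adjusted p = 0.0188, 0.0437 and 0.0317). The count was small and moved with the libraries and scaling used. Without WT replicate 3 it was 0, without WT replicate 2 or KO Wnt5a replicate 1 it was 1, and without KO Wnt5a replicate 2 it was 2. Among the 12 libraries without the reserve label it was 14, and the share of all tested genes called there was not counted. In this comparison all 6 megakaryocyte markers were called lower, with a sum of 9228 ± 1699.8 FPKM in KO Wnt5a, and of 9 LT-HSC markers 4 were called higher and 2 lower. The part of these markers in the members' changes was not tested.

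WT Reserve against WT asks how the reserve label differs within the wild type. Members split, with 45 of 91 called higher and 9 lower (limma), against 30.8% and 27.9% of tested genes, and a median of 0.23 against 0.06. This split depended on the processing: quantile normalization gave 36 higher and 17 lower, and removing the trend along transcript length from each library gave 27 higher and 28 lower with a median of 0.02, keeping 33 of the 54 calls in their direction. The members are short by the longest annotated transcript of each gene, with a median of 1231 bases against 2842 for tested genes. The changes that were largest concerned single genes and isoforms. Among the core subunits, Sdha, the flavoprotein of complex II that oxidises succinate, had 306, 321 and 349 FPKM in WT and 213, 152 and 268 in WT Reserve. Every WT Reserve library was below every WT library, and Sdha fell by 0.66 (SE 0.14, limma adjusted p = 0.000654). Its partner Sdhb, which carries the iron-sulphur centres, rose by 0.59 (SE 0.07, limma adjusted p = 9.107e-07), from 297, 303 and 304 FPKM to 440.1, 489.5 and 439. Of the ATP synthase core, Atp5a1, the alpha subunit, fell by 0.72 from 1043, 1034 and 982 FPKM to 632, 532 and 709, and Atp5b fell by 0.28. Of complex I, Ndufs7, a core iron-sulphur subunit, rose by 0.68, Ndufaf1, an assembly factor, by 0.92, and Ndufa3 fell by 0.60. Granulocyte and erythroid markers were each called higher in 10 of 10 genes in this comparison. Of 9 LT-HSC markers 5 were called higher and 3 lower. The part of these markers in the members' changes was not tested.

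KO Reserve against WT Reserve asks what the knockout does within the reserve label, and it gave a shift of most members. In KO Reserve 61 of 91 members were higher and 5 lower (limma), against 12% and 29.3% of tested genes. The median member rose by 0.45 while the median tested gene was at -0.17. Scaling by median ratios moved the median of all tested genes to 0.02 and quantile normalization to 0.03; the members' medians were then 0.70 and 0.31, with 72 higher and 3 lower, and 57 higher and 5 lower. Removing the length trend gave 73 higher and 4 lower and kept 65 of the 66 calls. Leaving out any 1 library of the 6 gave 60 to 67 calls. In this comparison 6 of 10 erythroid markers were called higher, 6 of 10 granulocyte markers lower and 8 of 9 LT-HSC markers lower, and their part in the members' changes was not tested.

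**Figure D2:**
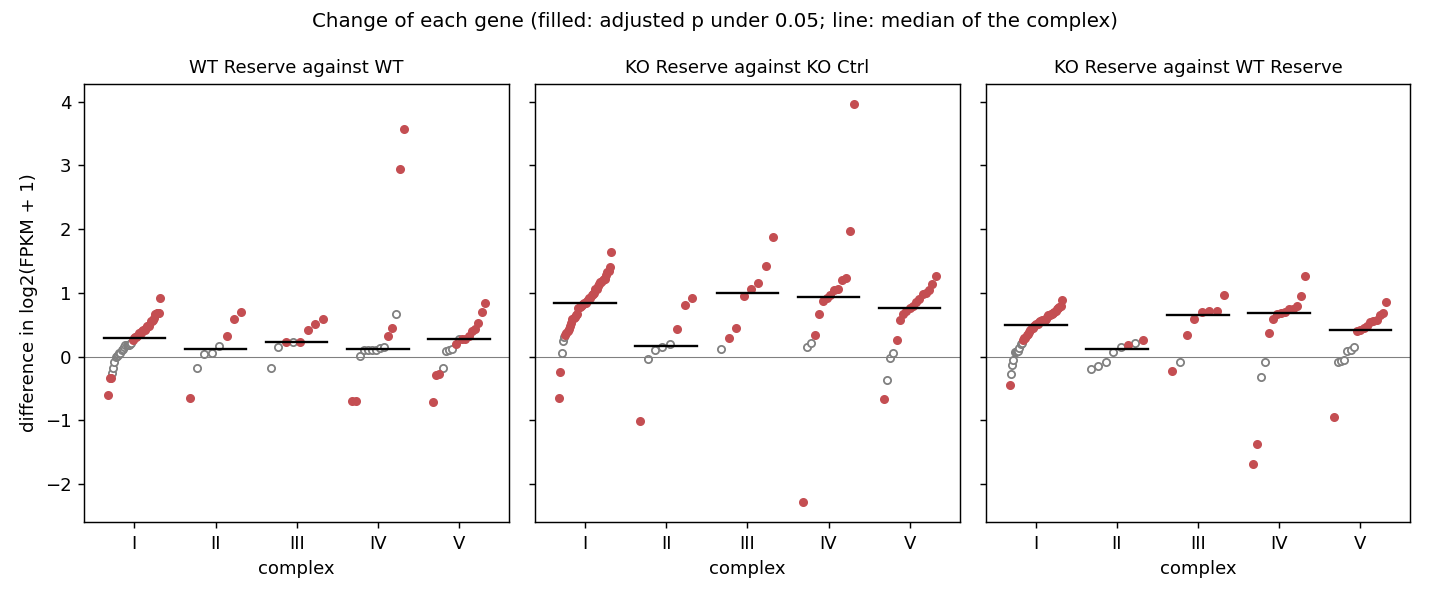
Difference in log2(FPKM + 1) of each of the 91 members (vertical axis) by complex as named (horizontal axis) in 3 comparisons; filled points passed an adjusted p of 0.05 in limma, open points did not, and lines are medians. In KO Reserve against WT Reserve most points of complexes I, III, IV and V lie above 0, and those of complex II lie near it.

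In complex I, 31 of 37 subunits rose between the reserve groups and none fell, with a median of 0.54. Ndufa5, an accessory subunit of the matrix arm, had 522, 619 and 499.995 FPKM in WT Reserve and 889.9, 1012 and 1146 in KO Reserve. No KO Reserve library came near the WT Reserve range, and Ndufa5 rose by 0.89 (SE 0.10, limma adjusted p = 5.737e-06). Ndufa1, a small membrane-arm subunit needed for assembly, rose by 0.80 from 924, 1052 and 886 FPKM to 1425, 1620.3 and 1952. Ndufb9 of the membrane arm rose by 0.78. Among the core subunits, Ndufs7 rose by 0.49 (485, 514 and 472 FPKM to 643, 685 and 749.6), and Ndufs3 and Ndufv2 rose by 0.34 and 0.26. Ndufs1, Ndufs8 and Ndufv1, which hold iron-sulphur centres or flavin, were at 0.20, 0.13 and 0.21 and did not pass, nor did the accessory subunits Ndufa9 and Ndufa10 at -0.14 and -0.05. Of the 7 assembly factors 2 rose, Ndufaf2 by 0.62 and Ndufaf3 by 0.29. Ndufaf5, which modifies Ndufs7, fell by 0.44 (SE 0.12, limma adjusted p = 0.00576), from 23.7, 23.9 and 19.7 FPKM to 19.5, 14.8 and 14.6.

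Complex II had the lowest median of the 5 complexes, 0.11. Sdhd, a membrane anchor, rose by 0.26 (SE 0.08, limma adjusted p = 0.0164), from 367, 377 and 382 FPKM to 496, 447 and 406, ranges that did not overlap. Sdhb was called higher at 0.18 (SE 0.07, limma adjusted p = 0.0425) but its ranges overlapped, with 440.1, 489.5 and 439 FPKM against 548, 524 and 476, and quantile normalization put it at -0.01. Sdha and the second anchor Sdhc were at -0.19 and -0.14 and did not pass, and none of the 4 assembly factors passed (0 at an unadjusted p under 0.05). The ratio of Sdha to Sdhb, both per length, was 1.08 ± 0.061 in WT, 1.05 ± 0.045 in Wnt5a, 1.34 ± 0.064 in KO Ctrl, 1.37 ± 0.036 in KO Wnt5a, 0.469 ± 0.15 in WT Reserve and, for the knockout with that label, 0.350 ± 0.013 (SD, n = 3). Every reserve library was below every library without the label, and the 2 knockout groups without it were above the 2 wild-type ones.

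In complex III, 6 of 8 subunits rose and 1 was called lower. Uqcr11, one of the smallest subunits, had 1406, 1753 and 1412 FPKM in WT Reserve and 2386, 2959.9 and 3692 in KO Reserve. Its WT level was 935, 1048 and 1042 FPKM, so the 3 groups did not overlap, and the difference between the reserve groups was 0.97 (SE 0.12, limma adjusted p = 1.611e-05). Uqcr10 and Uqcrh, 2 further small subunits, both rose by 0.72. Uqcrfs1, the Rieske iron-sulphur protein, rose by 0.33. The large core proteins, which do not carry redox centres, did not rise. Uqcrc2 was at -0.09, and Uqcrc1 was called lower at -0.23 (SE 0.09, limma adjusted p = 0.042), a direction that turned to 0.02 with median-ratio scaling and 0.10 without the length trend. Uqcrc1 had 782, 873 and 938 FPKM in WT Reserve and 804, 720.0 and 682 in KO Reserve, which overlap.

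In complex IV, 10 of 14 members rose and 2 fell. Cox7c, a small subunit, had 463, 553 and 465 FPKM in WT Reserve, a range that holds its WT values of 468, 503 and 496. In KO Reserve it had 829, 921 and 1115 FPKM and rose by 0.94 (SE 0.10, limma adjusted p = 1.585e-06). Cox5b and Cox5a, which contact the catalytic core, rose by 0.68 and 0.38. Ndufa4, the complex IV subunit with a complex I name, rose by 0.57. Cox7a2l, which links complexes III and IV into supercomplexes, was at -0.08 and did not pass.

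The isoforms of complex IV moved apart. Cox6b1, the isoform of most tissues, had 1987, 2202 and 2189 FPKM in WT, 1248, 1457 and 1228 in WT Reserve and 1866, 2207 and 2554 in KO Reserve. Cox6b2 had 30.1, 26.7 and 23.5 FPKM in WT, 186, 238 and 209.9 in WT Reserve and 429, 503 and 598 in KO Reserve. Cox6b2 was therefore highest in KO Reserve in every library, rising by 2.94 from WT to WT Reserve (SE 0.16, limma adjusted p = 9.535e-11) and by 1.26 from there to KO Reserve (SE 0.16, limma adjusted p = 1.077e-05). Its share of the summed Cox6b FPKM was 1.25% ± 0.22 for WT and 1.57% ± 0.14 for KO Ctrl, against 13.9% ± 0.81 for WT Reserve and 18.7% ± 0.22 for KO Reserve (SD, n = 3), and the 2 reserve groups overlapped neither each other nor the controls.

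Between the reserve groups Cox6a2 and Cox4i2 fell while most members of their complex rose. Cox6a2 was at or under the level of 3 fragments in 11 of the 12 libraries without the reserve label. It had 12.4, 17.3 and 7.12 FPKM in WT Reserve and 1.99, 3.003 and 4.07 in KO Reserve. The mean of the WT Reserve libraries was 106-fold the mean WT floor of 3 fragments per library. Within the knockout Cox6a2 was at 0 in all 3 KO Ctrl libraries, and the mean of KO Reserve was 21.4-fold the mean floor there. Only reserve libraries reached 1 FPKM, so Cox6a2 passed the filter through them alone. Its rise over the controls is therefore no independent result. Between the reserve groups Cox6a2 fell by 1.68 (SE 0.23, limma adjusted p = 3.344e-05), while Cox6a1, its counterpart of most tissues, rose by 0.80 from 1026, 1125 and 976 FPKM to 1584, 1820.3 and 2066. Cox4i2, an isoform linked to low oxygen, had 5.997, 7.71 and 7.08 FPKM in WT, 5.10, 4.10 and 2.68 in WT Reserve and 1.07, 0.579 and 1.05 in KO Reserve. It fell by 0.70 from WT to WT Reserve and by 1.36 between the reserve groups (SE 0.22, limma adjusted p = 0.00012). Cox7a1, the muscle isoform of Cox7a, was at 3.07 to 11.2 FPKM in these 3 groups and did not pass between the reserve groups (-0.31), while Cox7a2 rose by 0.70.

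**Figure D3:**
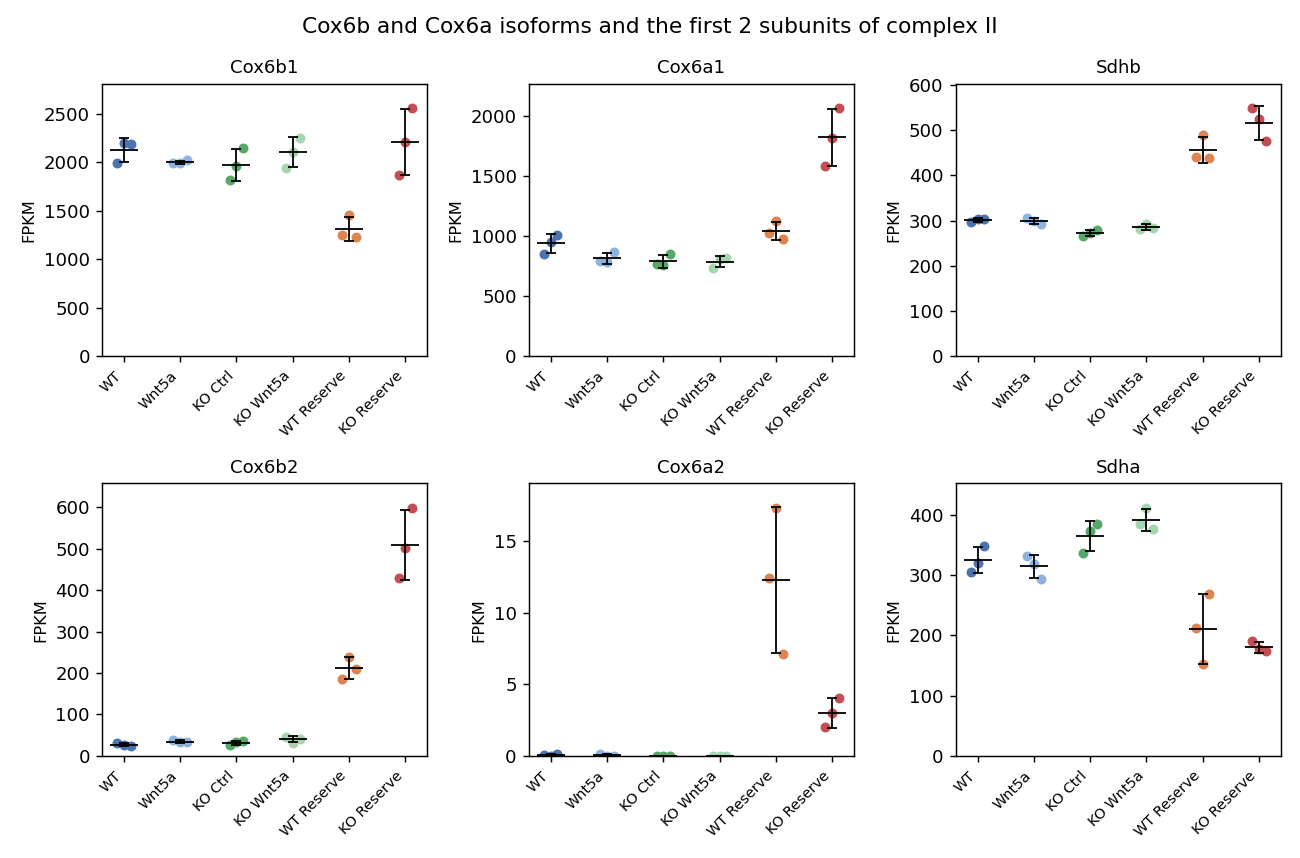
FPKM (vertical axes, from 0) of Cox6b1, Cox6a1 and Sdhb above and Cox6b2, Cox6a2 and Sdha below in the 18 libraries by group; points are libraries, and bars give the mean and SD of 3. Cox6b2 climbs from about 30.1 FPKM or less in WT to 429 or more in KO Reserve, Cox6a2 is highest in WT Reserve, and Sdha is lowest in the 2 reserve groups while Sdhb is highest there.

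In complex V, 10 of 17 members rose and 1 fell. Atp5k, the small e subunit of the membrane part, had 492, 550.2 and 422 FPKM in WT Reserve and 761, 862 and 1022 in KO Reserve, and rose by 0.85 (SE 0.12, limma adjusted p = 2.712e-05). In WT it had 492, 571 and 593 FPKM, which overlaps WT Reserve. Of the 3 genes for the c subunit of the proton-driven ring, Atp5g1, Atp5g3 and Atp5g2 rose by 0.68, 0.49 and 0.39. Atp5g1 made up 31.3% ± 0.35 of the Atp5g FPKM in WT, 34.1% ± 0.70 in WT Reserve and 37.4% ± 1.2 in KO Reserve (SD, n = 3), ranges that did not overlap. The catalytic head did not pass: Atp5a1, Atp5b and Atp5c1 were at -0.06, 0.15 and -0.07, with Atp5b at 2157, 1881 and 2452 FPKM in WT Reserve and 2479, 2373 and 2333 in KO Reserve. Dmac2 fell by 0.94 (SE 0.23, limma adjusted p = 0.00414), from 31.7, 19.9 and 22.1 FPKM to 17.8, 10.7 and 9.12.

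The members were also counted by class of subunit. The class named core and catalytic held 19 genes, among them Ndufs1, Ndufs7, Ndufv1, the 4 Sdh subunits, Uqcrc1, Uqcrfs1, Cox5a, Cox5b, Atp5a1 and Atp5b. The class is wider than its name. Cox5a and Cox5b are accessory subunits that contact the catalytic core, and Uqcrc1 and Uqcrc2 carry no redox centres. Of these 19, 8 rose and 1 was lower in KO Reserve against WT Reserve, with a median of 0.18. Cox5a and Cox5b, at 0.38 and 0.68, are among the 8. Of the 60 other members that are not assembly factors, 51 rose and 2 fell, with a median of 0.58, and of the 12 assembly factors, Dmac2 included, 2 rose and 2 fell, with a median of 0.08. The core and catalytic class has longer transcripts, by the longest annotated transcript of each gene, and length went with the change. Across the 91 members Spearman's rho of transcript length and change was -0.40, a description of genes that share libraries. Members under 1000 bases rose in 34 of 38 cases, and those of 2000 bases or more in 11 of 24. Among members of at least 1000 bases, 6 of 17 of the core and catalytic class rose (median 0.15) and 19 of 25 other members (median 0.56), with median lengths of 1818 and 1698 bases. The longest annotated transcript need not be the one expressed. Atp5l and Atp5g1, for example, entered the other class at 6310 and 4715 bases. The classes may therefore still differ in the length expressed. Without the length trend, Atp5a1, Atp5c1 and Uqcrc2 were at 0.26, 0.23 and 0.24 in place of values just below 0. The difference between the classes was not tested.

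**Figure D4:**
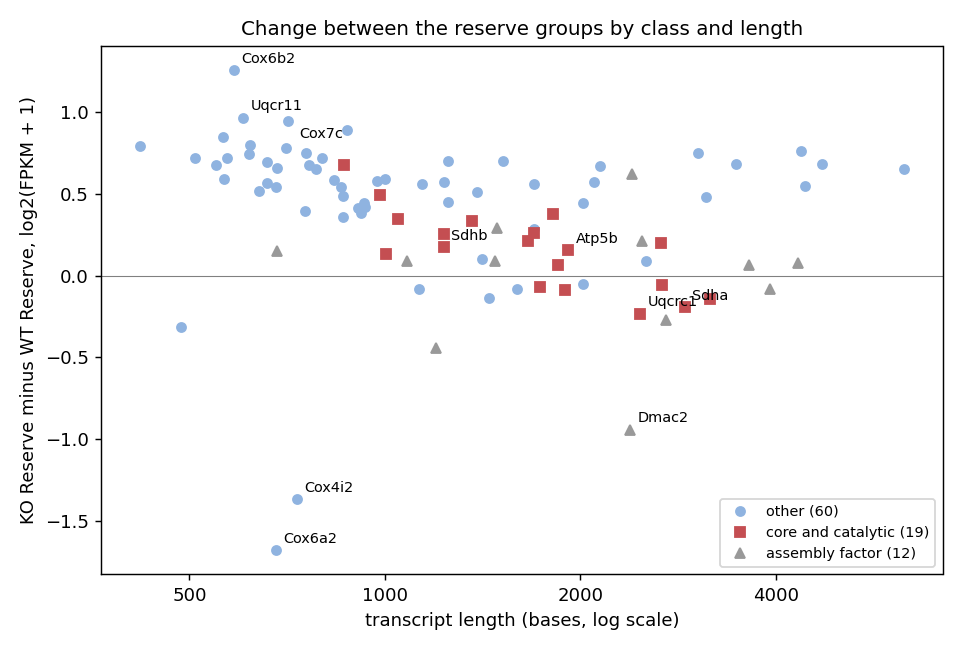
KO Reserve minus WT Reserve in log2(FPKM + 1) (vertical axis) against the longest annotated transcript in bases (horizontal log axis) for the 91 members. Squares are the core and catalytic class, triangles assembly factors and circles the others. Squares lie between -0.23 and 0.68, with a median of 0.18 against 0.58 for circles, and the 3 lowest points are Cox6a2, Cox4i2 and Dmac2.

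The NRF1 letters had like shares in members that rose between the reserve groups and in those that did not, 20 of 56 promoters (35.7%) and 7 of 20 (35.0%). Promoters were available for 56 of the 61 members that rose and for 20 of the 30 others. The part of the motifs in the changes was not tested. For ETS the counts were 15 of 56 and 5 of 20, and for YY1 8 of 56 and 4 of 20. Cox6b2, whose stretch printed above holds none of the 3 motifs, had the largest rise of the members in this comparison, 1.26.

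KO Reserve against KO Ctrl, the same question as WT Reserve against WT within the knockout, called 73 of 91 members higher and 5 lower (limma), against 24.8% and 40.4% of tested genes. The median member was at 0.82 and the median tested gene at -0.19, which median-ratio scaling moved to 0.05 and quantile normalization to 0.00; members were then at 1.14 with 83 higher and 4 lower, and at 0.48 with 66 higher and 12 lower. Complex III rose in 7 of 8 members, complex I subunits in 35 of 37, complex IV in 11 of 14, complex V in 13 of 17 and complex II in 3 of 8. Cox6b2 rose by 3.97, from 26.0, 33.7 and 34.9 FPKM, Uqcr11 by 1.88, from 727, 847 and 849 FPKM, and Ndufa1 by 1.65, from 479, 520.1 and 584 FPKM. Among the 5 called lower, Cox4i2 fell by 2.29, Sdha by 1.01, Atp5a1 by 0.67 and Ndufaf5 by 0.65. Sdha had 336, 373 and 385 FPKM in KO Ctrl and 190.2, 177 and 173 in KO Reserve. Granulocyte and erythroid markers were each called higher in 10 of 10 genes here too, and their part was not tested.

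Whether the genotypes differ more with the reserve label than without it was tested by the difference of the 2 genotype differences. It was positive and passed for 61 members and negative for 3 (limma), against 8.03% and 22.9% of tested genes, with a median of 0.58 against -0.22. Complex I had 32 of 44 members with a positive difference, complex II 2 of 8, complex III 6 of 8, complex IV 10 of 14 and complex V 11 of 17. Uqcr11 had the greatest value of the members at 1.29 (SE 0.18, limma adjusted p = 6.431e-05), and Cox6a2, Cox4i2 and Dmac2 were the 3 with a negative one. Cox6a2 was at or under the floor of 3 fragments in 2 WT and 3 KO Ctrl libraries, so its value rests on the reserve groups. Of the 19 genes of the core and catalytic class 9 passed, all positive, and 10 did not, Ndufs1, Sdha, Uqcrc1, Uqcrc2, Atp5a1 and Atp5c1 among them. This test and the comparisons above share libraries.

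**Figure D5:**
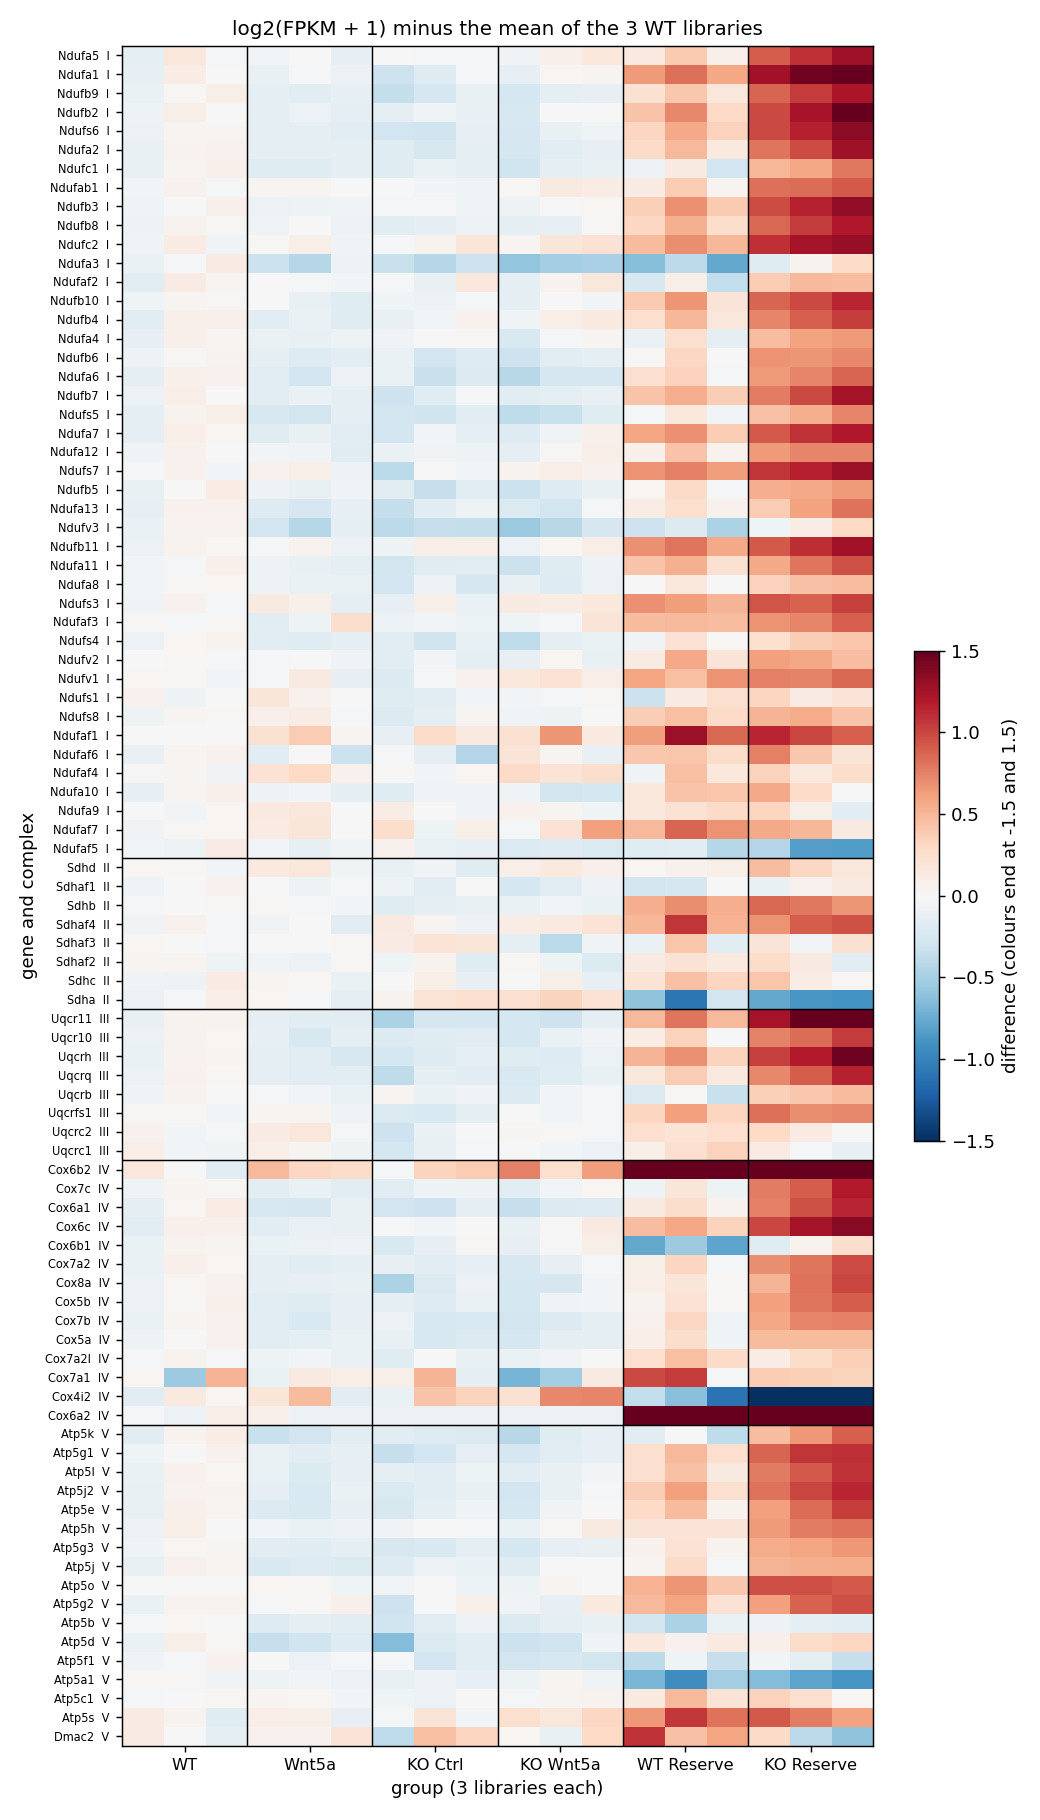
Difference of log2(FPKM + 1) from the mean of the 3 WT libraries (colour, ending at -1.5 and 1.5) for 90 of the 91 members (rows, by complex and then by the change between the reserve groups) in 18 libraries (columns, 3 per group). The KO Reserve columns are red for most members, and Sdha, Atp5a1 and Cox4i2 are blue in the reserve columns.

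Other genes of the pathway were read from lists of mitochondrial and metabolic genes. Between the reserve groups 12% of tested genes were called higher and 29.3% lower. Of 12 subunits encoded in mitochondrial DNA, 6 rose and 0 fell in KO Reserve against WT Reserve (limma), with a median of 0.50, while mt-Co1 and mt-Cytb, of complexes IV and III, were at -0.13 and -0.06 and did not pass. The levels of these subunits were very uneven in the table, with mt-Atp8 at 12625 ± 297 FPKM and mt-Co2 at 0.193 ± 0.012 FPKM in WT (SD, n = 3), so no sum over them is given. Of 8 further nuclear genes of the chain 5 rose, among them Cycs, cytochrome c, by 0.52 and Atpif1, the inhibitor of ATP synthase, by 1.04. Of 36 assembly factors outside the name rule 11 rose and 6 fell, with Cox17, a copper chaperone of complex IV, up by 1.28. Of 76 mitochondrial ribosomal proteins 39 rose and 8 fell (median 0.27).

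Lists of neighbouring pathways are read against the 12% of tested genes called higher and 29.3% called lower, with a median of -0.17, and their differences from the chain were not tested. Of 21 genes of the TCA cycle and pyruvate dehydrogenase 1 rose and 5 fell (median -0.16), and of 17 glycolysis genes 0 rose and 12 fell (median -0.59) between the reserve groups. The first of these lists includes kinases of pyruvate dehydrogenase (Pdk), and the second Ldha and the glucose transporters Slc2a1 and Slc2a3. Of 6 carriers and porins 1 rose and 1 fell (median -0.16). Of 15 regulators of mitochondrial biogenesis 4 rose and 2 fell, with Pprc1, a relative of PGC-1, up by 0.86 and Yy1 by 0.60; Nrf1 itself and Gabpa were at -0.15 and -0.37 and did not pass. Cytosolic ribosomal proteins, which like the members are short and abundant messages, rose in 71 of 77 cases and fell in 0 (median 0.59).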

How the data were processed

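RNA-seq covered 18 libraries in 6 groups of 3. Complementary DNA was made with the SMARTer kit for ultra low input and libraries with Nextera, per the labels' protocols. The authors deposited 1 table of FPKM values for 44349 genes, a unit the header does not name; mm10, Cufflinks, TopHat2 2.0.10 and CASAVA 1.8.2 are given per the submitters' processing notes. The members and lists were chosen with earlier results of these data known. Symbols, lengths and positions came from GENCODE M21 (43938 identifiers matched), the length being that of the longest transcript of a gene. Missing values in 33 cells removed 16 genes.

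Values were taken as log2(FPKM + 1) for the 14285 genes that reached 1 FPKM in 3 or more libraries and fitted with limma 3.58.1 (R 4.3.3), with 1 mean per group over all 18 libraries, an intensity trend and robust moderation. Calls used a Benjamini-Hochberg adjusted p under 0.05 over all tested genes in each of 9 comparisons. The fit was tested on simulated data. Library depth was read from the low values of 6690 single-transcript genes; floors cover counting error only. Named members were core subunits, isoform families, and per complex up to 2 called members of largest change in each direction, or else those of smallest p, and members called against most of their complex; Ndufa9, Ndufa10, Ndufs5, Ndufaf2 and Ndufaf3, and the genes named from the other lists, were picked after their values were seen. A few items are not reported here by name. Alternatives were quantile and median-ratio scaling, pseudocount, filter, variance model, library weights, libraries in the fit, the length trend, a replicate block and each library left out. Promoters were searched in Python 3.11.15 with pandas 2.3.3, and plots used matplotlib 3.10.9.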

Additional observations from a re-analysis of the deposited data

Results flagged for a closer look

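The difference between the genotypes was not the same with and without the reserve label for 64 members, by the test of that difference itself in limma. It was positive for 61 members and negative for 3, against 8.03% and 22.9% of tested genes. Among the members named by the rule, the difference of the 2 genotype differences was 1.29 for Uqcr11 and 0.93 for Uqcrq in complex III, 1.02 for Ndufb9 and 1.01 for Ndufa3 in complex I, and 0.37 for Sdhd and 0.32 for Sdhb in complex II. In complex IV it was 1.05 for Cox6a1, 1.05 for Cox7c, -1.59 for Cox6a2 (near the floor in WT and KO Ctrl) and -1.58 for Cox4i2. In complex V it was 1.04 for Atp5k, 0.94 for Atp5g1 and -1.07 for Dmac2.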

How the results depend on the processing

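The counts of members called, higher and lower together, stayed within 1.5 times under every alternative run in the 4 comparisons with the reserve label. The direction of the calls was less stable in WT Reserve against WT. There 33 of 54 calls were kept in their direction without the length trend, and 45 with quantile normalization. Not all counts outside the reserve label stayed within 1.5 times. KO Ctrl against WT went from 0 to 13 with library weights, 1 with only the libraries compared and 4 with the 12 libraries without the reserve label (an alternative chosen after seeing the data); Wnt5a against WT went from 0 to 14 with library weights; KO Wnt5a against WT went from 4 to 10 (median-ratio scaling), 2 (no filter), 21 (library weights), 9 (only the libraries compared) and 14 (the 12 libraries), and from 0 to 4 with 1 library left out. The share of all tested genes called under these settings was not counted, and the cause was not tested.

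Medians of the members moved to 0.0832 (quantile) and 0.0244 (length trend removed) in WT Reserve against WT, to 0.48 (quantile), 1.14 (median-ratio) and 0.64 (length trend removed) in KO Reserve against KO Ctrl, to 0.31 (quantile) and 0.70 (median-ratio) in KO Reserve against WT Reserve, to 0.35 (quantile) and 0.92 (median-ratio) in the difference of genotype differences, and to -0.20 (median-ratio) in KO Wnt5a against WT.

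Of 327 pairs of a named member and a comparison, 226 kept direction and side of the threshold under every alternative. Signs turned with quantile normalization for Atp5g3 (-0.16), Cox5b (-0.18), Cox7b (-0.31) and Uqcrc1 (-0.036) in WT Reserve against WT, for Atp5b (-0.65), Atp5c1 (-0.21), Cox6b1 (-0.48), Ndufa4 (-0.14) and Uqcrc1 (-0.42) in KO Reserve against KO Ctrl, for Sdhb (-0.0085) in KO Reserve against WT Reserve and for Atp5b (-0.0016) in the difference of genotype differences. With median-ratio scaling the sign turned for Uqcrc1 (0.0218, KO Reserve against WT Reserve). Without the length trend they turned for Atp5g3 (-0.26), Cox5b (-0.27), Cox6a1 (-0.26), Cox7a2 (-0.28), Cox7a2l (-0.0024), Cox7b (-0.25), Cox8a (-0.32) and Sdhd (-0.25) in WT Reserve against WT, for Cox6b1 (-0.33) in KO Reserve against KO Ctrl, for Atp5a1 (0.26), Atp5c1 (0.23), Uqcrc1 (0.10) and Uqcrc2 (0.24) in KO Reserve against WT Reserve and for Uqcrc1 (0.29) in the difference of genotype differences.

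With a replicate block the counts were 57 in WT Reserve against WT, 78 in KO Reserve against KO Ctrl, 65 in KO Reserve against WT Reserve and 66 in the difference of genotype differences, and 0, 0, 0, 4 and 0 in the others. Deviations of libraries with the same number correlated at -0.09 to 0.08. No pairing by number was seen, and whether such libraries share an animal or a day is not stated and was not tested. Depth limits only the members near the floor of 3 fragments, Cox6a2 among them.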
